A study of Mus musculus with 18 samples.

Results

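The subject here is the set of mouse genes that encode the proteins of the cytosolic ribosome. Members were chosen by symbol alone: Rpl or Rps followed by a number and at most a letter a, l or x, the stalk genes Rplp0, Rplp1 and Rplp2, and Rpsa. The rule took 81 of the 24062 gene symbols in the count table, 32 of the small (40S) and 49 of the large (60S) subunit. Of these, 77 had enough counts to be tested and 4 did not (Rpl10l, Rpl26, Rpl39l and Rps4l).

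RNA was sequenced from 18 libraries of immortalized mouse progenitor lines. The lines were made from lineage-negative marrow cells of Ddx41-floxed mice with a retrovirus carrying MLL-AF9, a leukemia fusion gene, and all grew in interleukin-3, interleukin-6 and stem cell factor. All carry Rosa-CreERT, a Cre recombinase that 4-hydroxytamoxifen (4OHT) switches on. The WT line (+/+) has no floxed Ddx41 allele, the Het line is +/flox and becomes +/- after 4OHT, and the FF line is flox/flox and becomes -/-. Each line was treated for 48 h with 1 µM 4OHT or with ethanol (EtOH), giving 6 groups of 3 libraries, lettered A to C. The study asked how loss of Ddx41, an RNA helicase gene mutated in myeloid malignancy, changes such progenitors before the -/- cells die. The labels do not say whether the 3 libraries of a group came from separate cultures or clones, so p-values measure only the spread between these libraries.

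A ribosome holds 1 copy of nearly every ribosomal protein, and a growing cell makes these proteins in step with ribosomal RNA. Their messengers are very abundant, short and stable, and most begin with a run of pyrimidines, the terminal oligopyrimidine (TOP) motif, through which mTOR and LARP1 set their translation and storage. Loss of 1 allele of several members causes Diamond-Blackfan anaemia, a marrow failure, and surplus Rpl5 and Rpl11, bound to 5S ribosomal RNA, hold back Mdm2 and so raise p53. Many members also carry a small nucleolar RNA (snoRNA) in an intron, and most have processed pseudogenes with nearly the same sequence.

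The start of the messenger is shown first because it is the feature the symbol rule did not use. RefSeq promoter windows (GRCm38.p6) covered 60 of the 81 members with 72 start sites. A C followed by at least 4 further pyrimidines stood exactly at the annotated start of 13 of these 72 sites (18.1%), against 823 of 32851 start sites of all genes (2.5%). Within 5 bases on either side it was found at 30 member sites (41.7%) and at 6027 sites in all (18.3%). The motif was searched on the gene's strand only, and a match is a description of letters. In the windows that follow, 20 bases before the start are followed by the first 20 of the messenger, with the pyrimidine run in capitals. These windows were picked from the 13 sites with the motif exactly at the start and do not represent the 72. Other members, such as Rpl5, Rpl10, Rplp0 and Rps19, had no match within 5 bases.

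Rps6, chr4:86857348-86857387, minus strand: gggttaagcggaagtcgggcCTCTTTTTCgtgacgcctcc

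Rpl15, chr14:18270967-18271006, minus strand: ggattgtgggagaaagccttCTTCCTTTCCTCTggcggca

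Rps18, chr17:33955646-33955685, minus strand: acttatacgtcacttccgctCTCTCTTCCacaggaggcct

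Rps10, chr17:27635225-27635264, minus strand: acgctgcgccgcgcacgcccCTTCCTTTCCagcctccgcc

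Rpl14, chr9:120571497-120571536, plus strand: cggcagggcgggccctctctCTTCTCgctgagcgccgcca

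Rps27, chr3:90213629-90213668, minus strand: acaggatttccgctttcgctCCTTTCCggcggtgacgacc

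Some features of the libraries bear on the results. They held 24730213 to 49277884 counts. The deposited table sets the 12 WT and FF columns beside a separate block with the 6 Het columns, so whatever differed between the blocks and the Het line cannot be told apart. The library labelled FF_EtOH C carried the Y-linked gene Eif2s3y at 86.3 CPM (counts scaled to the same total in every library), while the other 5 FF libraries were at 0, and the library labelled WT_4OHT C was at 0 while the other WT libraries had 66.4 to 101 CPM. These values go against the line on both labels, so the labels of these 2 libraries are in doubt, and whether they were exchanged was not tested. Group values are printed under the labels as given. Het_4OHT A lay far from the other Het libraries over all tested genes (median absolute log2 deviation from the block median 0.383, against 0.0708 to 0.127). Ddx41 itself, the targeted gene, was at 112, 82 and 73.7 CPM in FF EtOH and 14.6, 16.5 and 17.7 CPM in FF 4OHT, and at 71.3, 68 and 79.1 CPM in Het EtOH and 58.4, 43 and 41.3 CPM in Het 4OHT. The main results are given with and without Het_4OHT A and FF_EtOH C, and values of single members without 1 library where they differ much.

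The progenitor genes Ptprc, Kit, Spi1, Mpo, Hoxa9 and Meis1 had counts in all lines, and Cd34 was near 1.06 CPM. The 7 summed to 3561 to 5145 CPM in WT EtOH, 1691 to 3369 in FF EtOH and 965 to 997 in Het EtOH. With 4OHT they summed to 1395 to 4914 CPM in WT, 1410 to 1818 in FF and 858 to 993 in Het. The part of this line difference in the members' values was not tested. Of the erythroid markers Hba-a1 had no counts, and the 3 erythroid markers summed to 1.86 CPM at most in any library. The lymphoid markers summed to 0.53 CPM at most, with Cd3e at 0. The 3 stromal markers summed to at most 7.59 CPM in WT and FF libraries and to 14.4 to 25.6 CPM in Het libraries.

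Most members had high counts, and together the 81 members held 4.14 to 8.41% of the counts of a library. Levels per length are given as mean CPM over all 18 libraries per kilobase of coding sequence. Of 80 members with a coding sequence in GENCODE, 72 lay between 953 and 13530 CPM per kb, with a median of 1744. Rpl41, which encodes the smallest protein of the ribosome, was highest at 13530 CPM per kb, followed by Rps29 at 4299, the stalk protein gene Rplp1 at 3389, Rpsa at 2960 and Rplp0, the stalk base, at 2914. Rpl41 has a coding sequence of only 75 bases.

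The other 8 members lay below. The testis and muscle paralogs were at or near 0: Rpl10l and Rpl39l had no counts, and Rpl3l, a striated muscle form of Rpl3, averaged 0.394 CPM per kb. Rps4l, which has no coding sequence in GENCODE and so no level per kb, had 1 count in all. Rps27l, a paralog of Rps27 and a known p53 target, stood at 414 CPM per kb. The remaining 4 encode core proteins of every ribosome, yet Rpl26 had 1 count in 18 libraries, Rps27 averaged 7.72 CPM per kb, Rpl30 13.3 and Rpl34 17.7. Each of these 4 has near-identical gene copies: at 95% identity or more over at least 80% of the coding sequence, GENCODE holds 6 copies of Rpl26, 4 of Rps27, 12 of Rpl30 and 5 of Rpl34. Copies are not particular to these 4: 74 of the 81 members have at least 1, and Rpl21 with 57, Rpl29 with 27 and Rpl17 with 22 are among the 72 with high levels.

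Rps27 is the extreme case, shown here because its coding letters are the same as those of a copy. Its coding sequence at chr3:90212522-90213651 (GRCm38, minus strand) is 252 bases long and differs by 0 bases from that of Rps27rt, a gene at chr9:114982366-114982739. Rps27rt had 0 counts in every library. The first 80 coding bases are the same in both genes.

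Rps27: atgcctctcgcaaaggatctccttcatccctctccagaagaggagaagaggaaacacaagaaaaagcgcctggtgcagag

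Rps27rt: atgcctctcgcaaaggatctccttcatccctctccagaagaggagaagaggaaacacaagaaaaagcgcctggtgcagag

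For members with such copies, the counts are those reads the authors' counting assigned to the member, and how reads that match several copies were treated is not given in the sources used here.

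The share of all counts held by the 81 members is the broadest measure of the set. In WT EtOH it was 7.08, 6.72 and 8.01% in libraries A, B and C, and in WT 4OHT 7.22, 7.90 and 7.42%. In FF EtOH it was 6.62, 6.22 and 6.93%, and in FF 4OHT 7.83, 7.50 and 8.19%, so every FF 4OHT library lay above every FF EtOH library. In Het EtOH it was 5.74, 4.49 and 5.61%, and in Het 4OHT 8.41, 4.14 and 5.35%: Het_4OHT A held the largest share of all 18 libraries, while its 2 partners lay within or below the range of Het EtOH.

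The FF means were 6.59 ± 0.36% (SD, n = 3) with EtOH and 7.84 ± 0.34% (SD, n = 3) with 4OHT, a difference of 1.25 percentage points (exact two-sided permutation test, p = 0.1, the smallest that 3 against 3 libraries allow). The difference was 1.42 points without FF_EtOH C and 1.27 points without FF_EtOH A. In WT the difference was 0.24 points (exact permutation p = 0.6). In Het it was 0.69 points with Het_4OHT A (exact permutation p = 0.9) and -0.53 points without it. All 3 lettered pairs of FF were higher with 4OHT, by at most 1.28 points, while those of WT by 0.14, 1.18 and -0.59, and those of Het by 2.68, -0.35 and -0.26.

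**Figure D1:**
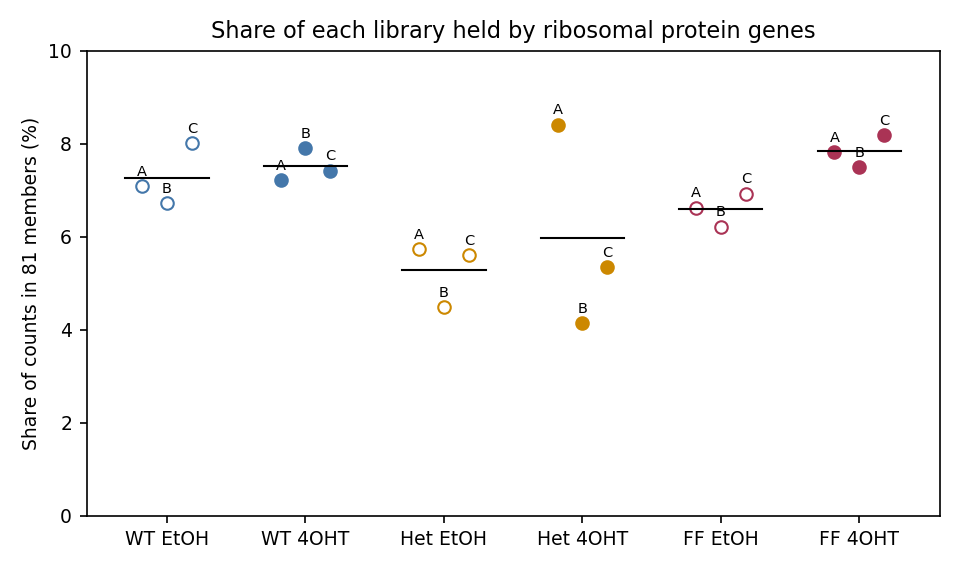
Percent of each library's counts that fall on the 81 members (vertical axis) for the 6 groups (horizontal axis). Points are libraries with their letters, open for EtOH and filled for 4OHT, and bars are group means. The 3 FF 4OHT libraries (7.50 to 8.19%) lie above the 3 FF EtOH libraries (6.22 to 6.93%), and Het_4OHT A (8.41%) lies far above the other Het libraries.

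Deletion of both Ddx41 alleles was the main comparison. Between FF 4OHT and FF EtOH, 74 of the 77 tested members had a higher mean with 4OHT, with a median log2 fold change of 0.23 and a range of -0.08 to 0.84, while the median over all 12859 tested genes was -0.02. No single member passed the test in either direction (0 higher and 0 lower at an adjusted p of 0.05, edgeR quasi-likelihood test), against 5.16% of all genes called higher and 8.29% called lower. At an unadjusted p under 0.05 the members numbered 3 (3.9%), all higher, against 28.1% of all genes in either direction, and the DESeq2 Wald test and limma voom also called 0. This percent of members depended on the fit. It was 49.4% against 33.9% of all genes with only the FF libraries fitted, and 35.1% against 32.7% without Het_4OHT A and FF_EtOH C. With a replicate block within each line it was 33.8% against 35.2%. Without FF_EtOH C alone it was 13.0% against 25.8%, and without FF_EtOH B alone 0.0% against 24.6%. For 41 members (53.2%) every 4OHT library lay above every EtOH library, against 18.7% of all genes, and for 0 members every 4OHT library lay below, against 21.5% of all genes. Without FF_EtOH C the first count was 50 (64.9%, background 25.6%), and without FF_EtOH A it was 59 (76.6%, background 24.8%).

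The 31 tested 40S members had a median of 0.28, with 29 above 0, and the 46 tested 60S members had a median of 0.22, with 45 above 0. The 17 tested members linked to Diamond-Blackfan anaemia had a median of 0.27, with 15 above 0 and 0 called.

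Rps19, an assembly protein of the 40S head and the gene most often mutated in Diamond-Blackfan anaemia, was at 464, 624 and 735 CPM in FF EtOH and 818, 850.4 and 988 CPM in FF 4OHT. The 4OHT libraries lay above all 3 EtOH libraries, and FF_EtOH A was the lowest. Its log2 fold change was 0.54 ± 0.25 (SE, n = 3 per group, edgeR adjusted p = 0.173), 0.70 without FF_EtOH C and 0.38 without FF_EtOH A. In the WT line the same gene was at 735, 673 and 929 CPM with EtOH and 780.1, 878 and 827 CPM with 4OHT, ranges that overlap.

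Rps7, which binds the 40S body and is also a Diamond-Blackfan gene, was at 829.9, 833 and 999 CPM in FF EtOH and 1116, 1119 and 1381 CPM in FF 4OHT. The groups did not overlap, with FF_4OHT C the highest (log2 0.44 ± 0.25 SE, edgeR adjusted p = 0.259).

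Rpl22, a 60S protein that the ribosome can exchange for its paralog Rpl22l1, was at 223, 323 and 375 CPM in FF EtOH and 425, 422 and 442 CPM in FF 4OHT (log2 0.48 ± 0.29 SE, edgeR adjusted p = 0.309), and its log2 fold change was 0.30 without FF_EtOH A. Rps27l was at 57.8, 136 and 143 CPM with EtOH and 179, 173 and 180.3 CPM with 4OHT, and FF_EtOH A stood far below the other 2 EtOH libraries (log2 0.66 ± 0.40 SE, edgeR adjusted p = 0.308). Rps27 had the highest fold change of all members (log2 0.84 ± 0.34 SE, edgeR adjusted p = 0.114), at 2.28, 1.24 and 1.86 CPM with EtOH and 3.81, 2.99 and 2.87 CPM with 4OHT, a level at which few reads were placed on the gene. Rps14, a 40S gene lost in 5q- syndrome, completed the 5 highest at log2 0.45 ± 0.36 (SE). Without FF_EtOH A, Rps27l was at 0.35 and Rps14 at 0.25, and without FF_EtOH C they were at 0.88 and 0.66.

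At the other end Rps26 had a log2 fold change of -0.08, Rps28 -0.04, Rpl41 0.02 and Rpl28 0.04. Rps26 was at 1010.1, 566 and 577 CPM in FF EtOH and 652, 664 and 725 CPM in FF 4OHT: FF_EtOH A exceeded every 4OHT library, while the other 2 EtOH libraries lay below them. Without FF_EtOH A the log2 fold changes of Rps26, Rps28, Rpl41 and Rpl28 were 0.25, 0.19, 0.19 and 0.27, all above 0, and without FF_EtOH C they were -0.21, -0.11, -0.01 and -0.04.

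The genes of the stalk, which calls in the elongation factors, had small differences. Rplp0 was at 3187, 2517 and 2528 CPM in FF EtOH and 3073, 2889 and 3233 CPM in FF 4OHT (log2 0.16 ± 0.17 SE), with overlapping groups. Rplp1 had a log2 fold change of 0.10 and Rplp2 of 0.38, neither past the test. Rpsa, the 40S protein also known as the laminin receptor, was at 0.13, with FF_EtOH A again above every other FF library. Without FF_EtOH C, Rplp0 was at 0.10, Rplp1 at 0.02 and Rpsa at 0.04, and without FF_EtOH A they were at 0.28, 0.29 and 0.37.

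Of the 5S particle, Rpl5 was at 1303, 1419.9 and 1705 CPM in FF EtOH and 1791, 1723 and 1868 CPM in FF 4OHT (log2 0.28 ± 0.15 SE, edgeR adjusted p = 0.231), without overlap. Rpl11 was at 1340.1, 786 and 911 CPM with EtOH and 1051, 1001 and 1141 CPM with 4OHT (log2 0.07 ± 0.24 SE, edgeR adjusted p = 0.882), with FF_EtOH A the highest of the 6. Rpl10, among the last proteins to join the 60S subunit, was at 0.14, Rpl3, near the catalytic centre, at 0.18, its muscle form Rpl3l at 0.09, Rpl39, in the exit tunnel, at 0.34, Rps4x at 0.28 and Rps27a, made as a fusion with ubiquitin, at 0.35. None of these passed the test. Without FF_EtOH C, Rpl10 was at 0.30, Rpl39 at 0.61, Rps27a at 0.58 and Rpl11 at 0.00. Without FF_EtOH A they were at -0.04, 0.13, 0.15 and 0.33, and Rpl3l was at 0.44.

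The count of called members rested on which libraries entered. Leaving out FF_EtOH C alone, 0 members were called higher, against 3.52% of all genes, and leaving out FF_EtOH A alone 0, against 3.04%. Het_4OHT A is in neither FF group and enters the FF comparison only through the filter, scaling and spread that all libraries share. Without Het_4OHT A and FF_EtOH C, 11 of 77 members rose, against 7.1% of all genes called higher in that fit, and 0 fell, with a median of 0.30. These included the 40S genes Rps4x, Rps7 and Rps19 and the 60S genes Rpl5, Rpl6, Rpl7, Rpl9, Rpl13, Rpl13a and Rpl22. Rps19 had the largest log2 change (0.70 ± 0.20 SE, edgeR adjusted p = 0.0267), and Rpl6 rose by 0.38 ± 0.09 (SE, edgeR adjusted p = 0.0139). Without FF_EtOH A and Het_4OHT A, 3 members rose, among them Rpl19 (log2 0.34, edgeR adjusted p = 0.0409) and Rpl23a (0.31, 0.0286), against 6.48% of all genes. The 11 and the 3 had 0 genes in common. When only the 6 FF libraries were fitted, 5 members rose, against 7.74% of all genes. The median stayed between 0.20 and 0.31 in every one of these fits and in those that left out 1 library.

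**Figure D2:**
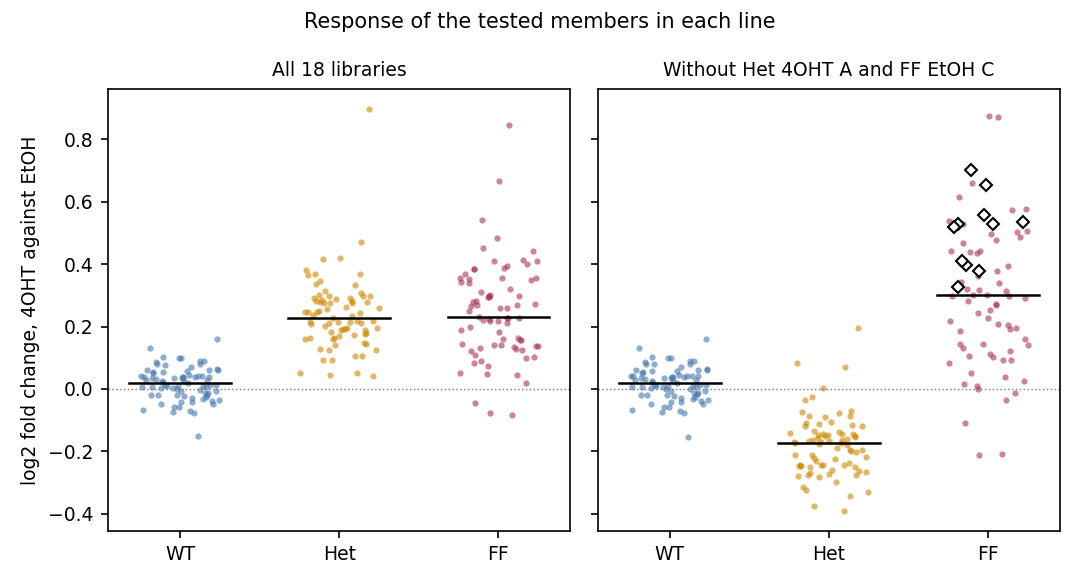
Log2 fold change of 4OHT against EtOH (vertical axis) for the 77 tested members in the WT, Het and FF lines (horizontal axis), from all 18 libraries (left) and without Het_4OHT A and FF_EtOH C (right). Each point is a gene, bars are medians and open diamonds are genes past an adjusted p of 0.05. The FF median was 0.23 on the left and 0.30 on the right, and the Het median turned from 0.23 to -0.17.

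In the WT line, where Cre finds no floxed Ddx41, the differences were small. The median log2 fold change with 4OHT was 0.02, with 50 of 77 members above 0 and a range of -0.15 to 0.16. By letter, the WT median difference was -0.02 in A, with 51 members below 0, 0.21 in B, with 75 above 0, and -0.13 in C, with 68 below 0. In FF it was 0.23, 0.29 and 0.23 in A, B and C, with 57, 76 and 73 members above 0. In WT no member was called higher or lower (0.0% of all genes higher and 0.0% lower). At an unadjusted p under 0.05 the members numbered 0, against 2.14% of all genes. For 0 members the 2 groups were apart in either direction, against 2.85% of all genes above and 1.97% below. Rplp0 was at 2644, 2489 and 2959 CPM with EtOH and 2669, 2894 and 3096 CPM with 4OHT. Across the 73 members at 10 CPM or more, the small WT differences rose with the GC content of the coding sequence (Spearman rho 0.68, Pearson r 0.64), a description across genes that share the same 6 libraries.

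In the Het line, where 4OHT removes 1 allele, the direction depended on Het_4OHT A. With it, all 77 tested members were above 0 (median 0.23, range 0.04 to 0.90). None was called (0 higher against 0.0% of all genes and 0 lower against 0.0156%). At an unadjusted p under 0.05 there were 0 members, against 1.91% of all genes. Without Het_4OHT A, 4 of 77 were above 0 and the median was -0.17. The B libraries moved the median too: it was 0.06 without Het_EtOH B, with 61 above 0, and 0.49 without Het_4OHT B. In the fit without Het_4OHT B, 49 members (63.6%) were at an unadjusted p under 0.05, against 9.64% of all genes. In that fit 0 members were called, against 0.0% of all genes higher and 0.0077% lower. The labels do not say whether equal letters are pairs. Het libraries of the same letter deviated alike from their group means over all genes (correlations 0.476, 0.697 and 0.402). The fits above did not use the letters. A fit with a block for the letter within each line gave a median of 0.14 and 0 calls (0.0% of all genes higher, 0.00778% lower). Letter by letter the median difference was 0.67 in A, with 77 members above 0, -0.15 in B, with 72 below 0, and -0.08 in C, with 67 below 0.

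Rps7 shows the split, at 980.4, 658 and 803 CPM in Het EtOH and 1387, 550.5 and 692 CPM in Het 4OHT. There A is above all EtOH libraries, and B and C are each below the EtOH library of the same letter. Rplp0 did the same, at 2792, 2222 and 2493 and 3701, 2050.3 and 2441 CPM. With all libraries the groups overlapped in 77 members (0 apart upward against 2.22% of all genes, 0 apart downward against 2.71%). Without Het_4OHT A, 0 members lay wholly above (8.95% of all genes) and 6 wholly below (7.79% of the set, 7.95% of all genes). Het_4OHT A also had the ribosomal RNA precursor Rn45s at 14895 CPM, against 1964 to 6197 CPM in the other Het libraries, and its part in the result was not tested.

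The 3 responses were then compared with each other by interaction terms, which share libraries. The FF response exceeded the WT response by a median of 0.24 log2 over the 77 members, with 72 above 0. None was called (0 higher against 0.412% of all genes, 0 lower against 1.89%). At an unadjusted p under 0.05 there were 0 members, against 15.3% of all genes. Without Het_4OHT A and FF_EtOH C, 1 member passed, against 1.61% of all genes called higher. With WT_4OHT C also left out, 0 passed, against 1.1% of all genes. The FF response exceeded the Het response by a median of 0.03, with none called (0.404% of all genes higher, 2.09% lower). There, 0 members were at an unadjusted p under 0.05, against 16.3% of all genes. Without Het_4OHT A alone that median was 0.42 and 1 member passed, Rps7 (0.83 ± 0.21 SE, edgeR adjusted p = 0.0401), against 0.715% of all genes called higher. Without Het_4OHT A and FF_EtOH C it was 0.47, and 4 members passed, among them Rps7 (0.92 ± 0.22 SE), Rps4x (0.57 ± 0.14 SE) and Rpl7 (0.45 ± 0.11 SE), against 0.777% of all genes called higher. The Het response against the WT response had a median of 0.20 with all libraries and -0.20 without Het_4OHT A, and no member was called (0.0% of all genes higher, 0.0% lower).

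In that fit without Het_4OHT A and FF_EtOH C the Het line itself had 0 members called in either direction (0.0% of all genes higher, 0.0% lower). Between the FF and WT lines with EtOH alone, 0 members were called (0.0% higher and 0.0% lower over all genes), with a median of -0.17 and 66 of 77 members below 0 in FF. Rps27a was among the lowest there, at -0.36, and Rps26 the highest at 0.23. Without FF_EtOH A they were at -0.15 and -0.10 and 0 of 77 members were above 0, and without FF_EtOH C they were at -0.58 and 0.36.

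The largest differences of the whole set lay between the Het and WT lines with EtOH. Of 77 tested members, 27 were lower in Het (against 10.4% of all genes) and none was higher (13.3% of all genes), with a median of -0.55 and 76 members below 0. Without Het_4OHT A and FF_EtOH C, 42 were lower (against 15.1% of all genes). Without Het_EtOH B 16 were lower (6.69% of all genes), and without WT_EtOH C 17 (7.33%).

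Rpl17, a protein at the exit of the peptide tunnel, differed most (log2 -4.09 ± 0.31 SE, edgeR adjusted p = 3.63e-07). It was at 1044, 973 and 1058 CPM in WT EtOH, 1185, 785 and 993 CPM in FF EtOH and 72.6, 45 and 63.2 CPM in Het EtOH. Het 4OHT libraries were as low, at 116, 39.7 and 60 CPM, so the gap goes with the line and column block and not with treatment.

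Rpl15, a 60S core protein, followed at log2 -2.29 ± 0.17 (SE), with 996, 936 and 989.9 CPM in WT EtOH and 211, 164 and 223 CPM in Het EtOH. The others of the 6 largest differences were Rpl23a at -2.13, Rps12 at -1.86, Rpl29 at -1.72 and Rpl21 at -1.69. At the opposite end Rpl4 was at 0.11 and Rpl7 at -0.08.

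The size of the line difference went with the number of near-identical copies. The 6 genes just named have 22, 13, 19, 22, 27 and 57 copies, nearly all processed pseudogenes. The 17 members with 10 or more copies had a median of -1.42 and 14 of them were called lower. The 60 tested members with under 10 copies had a median of -0.46 and 13 of them were called lower. Over all genes 10.4% were called lower. Across 73 members the Spearman rho of the line difference with copy number was -0.59 (Pearson r -0.64), while it was 0.03 with coding length and 0.10 with GC content. These are descriptions across genes that share the same libraries and column blocks.

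**Figure D3:**
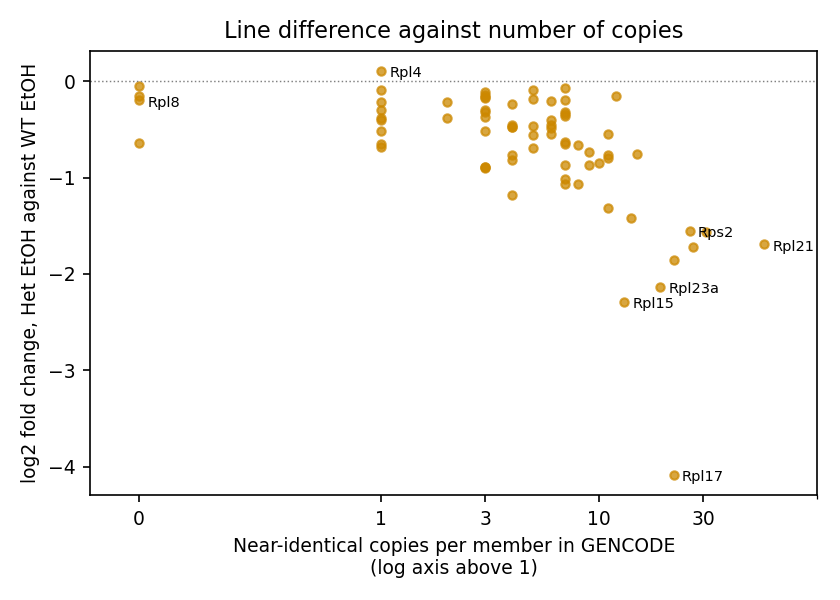
Log2 difference of Het EtOH against WT EtOH (vertical axis) against the number of near-identical copies of each member in GENCODE (horizontal axis, logarithmic above 1) for 73 members, 1 point a gene. Rpl17 (-4.09, 22 copies), Rpl15 (-2.29, 13 copies) and Rpl23a (-2.13, 19 copies) are lowest, Rpl4 (0.11, 1 copy) is highest, and members with under 10 copies have a median of -0.46.

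The copies themselves were looked up in the table. Rpl14, a 60S gene at chr9:120571444-120574654, has a processed pseudogene, Rpl14-ps1, at chr7:45324965-45325617 (GRCm38, both on the plus strand). Their aligned coding sequences differ at 4 bases and by a gap of 3 bases. The 80 bases from coding position 344 to 423 are printed because they hold 2 of the differing positions, which are in capitals.

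Rpl14: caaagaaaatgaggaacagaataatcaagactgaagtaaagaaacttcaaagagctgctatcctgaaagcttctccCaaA

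Rpl14-ps1: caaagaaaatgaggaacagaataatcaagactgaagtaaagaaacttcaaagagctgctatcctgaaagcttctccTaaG

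Rpl14-ps1 had 0 to 4 counts in each of the 12 WT and FF libraries and 7430 to 17110 counts in each of the 6 Het libraries. In CPM it was at 331, 231 and 272 in Het EtOH, while Rpl14 was at 676, 501 and 622 CPM there and 959, 939 and 939.9 CPM in WT EtOH. The pseudogene of Rpl31, Rpl31-ps12, ran the other way, with 73 to 317 counts in the WT and FF libraries and 5 to 12 in the Het libraries. A gene present in only 1 line, or reads placed differently in the 2 column blocks, cannot be told apart here. Both pseudogenes were picked after their values were seen.

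The make-up of the set, that is, which members are high relative to the rest, was steady in all but a few libraries. After the library median was removed, the root mean square deviation of the 73 members from their block's median was 0.0572 to 0.11 log2 in 11 of the 12 WT and FF libraries. In FF_EtOH A it was 0.416. Over the 2467 other genes at 100 CPM or more, FF_EtOH A was at 0.309, above the other FF EtOH libraries (0.211 and 0.187) and within the 0.176 to 0.365 of the other 11.

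In FF_EtOH A, Rps27l (-1.23), Rps14 (-0.73), Rps27a (-0.71), Rpl39 (-0.70) and Rpl38 (-0.69) were lowest, and Rps26 (0.83), Rps29 (0.62), Rps28 (0.59) and Rpl11 (0.59) among the highest. The deviations had a Spearman rho of 0.31 with coding GC content, 0.02 with coding length and 0.10 with copy number across 73 members. FF_4OHT A, which carries the same letter, deviated far less (root mean square 0.0807). Across members, deviations from the group means correlated at 0.329 between FF_EtOH A and FF_4OHT A, against -0.079 for letter B and 0.124 for C.

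Among the Het libraries the B pair stood apart, at 0.241 with EtOH and 0.237 with 4OHT, against 0.0857 to 0.196 in the other 4. There the long messengers were high and the short ones low: in Het_EtOH B, Rpl4 (0.49), Rpl3 (0.46) and Rpl6 (0.39) were above the block median, and Rps27l (-0.71), Rps21 (-0.49) and Rps14 (-0.49) below it. Spearman's rho with coding length was 0.71 in Het_EtOH B, 0.76 in Het_4OHT B and -0.71 in Het_4OHT A, so Het_4OHT A leaned to short members.

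**Figure D4:**
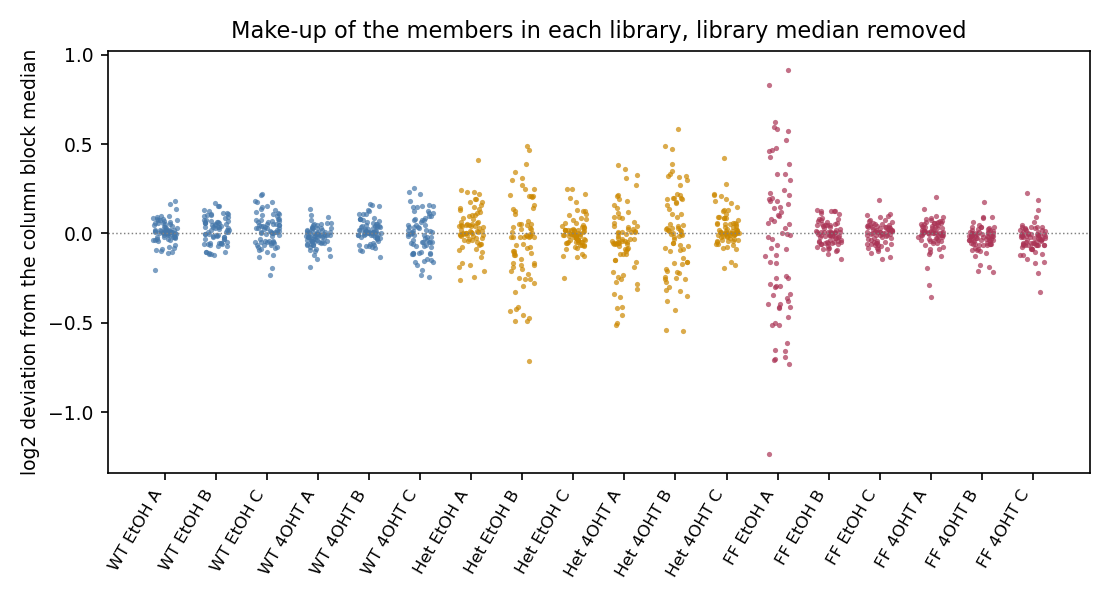
Deviation of each of 73 members from its median within the column block (vertical axis, log2, after the library median was removed) in each of the 18 libraries (horizontal axis). Each point is a gene. FF_EtOH A (root mean square 0.416) spreads most, and the Het B libraries (0.241 and 0.237) spread more than the other WT and FF libraries.

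The snoRNAs that lie inside introns of members were set beside their hosts. GENCODE places 56 in 29 members, 31 of them are in the table and 28, in 22 hosts, could be tested. These are scarce RNAs, and 4 of the 28 (Snora62, Snord33, Snord35b and Snord42a) reach the count filter of 0.34 CPM in 3 libraries only through FF libraries, 3 of them only through FF 4OHT, where they are high. In FF 4OHT against EtOH, 10 of the 28 rose and none fell. Of the 24 that reach the filter outside the FF line, 7 rose and none fell, against 5.16% of all genes called higher, with a median log2 fold change of 1.37, while their hosts had a median of 0.23 and none was called. In the WT and Het lines 0 of 28 were called, with medians of -0.14 and 0.13.

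Snora70 guides pseudouridylation of ribosomal RNA and lies in an intron of Rpl10 (chrX:74272484-74272620, GRCm38, plus strand). It was at 1.55, 3.63 and 1.94 CPM in FF EtOH and 12.6, 14 and 18.7 CPM in FF 4OHT (log2 2.67, edgeR adjusted p = 0.000484), while Rpl10 was at 860.1, 1276 and 1427 and 1216, 1348 and 1375 CPM (log2 0.14, adjusted p = 0.682). The snoRNA groups were far apart and the host groups overlapped.

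Snora7a, in Rpl32, was at 1.43, 1.39 and 1.02 CPM with EtOH and 10.5, 8.64 and 11.9 CPM with 4OHT, while Rpl32 was at 948, 792 and 956 and 1029, 979 and 1147 CPM. The smallest log2 fold change was that of Snord42b in Rpl23a (-0.03). Snord4a, in the same host, was at 0.66 (edgeR adjusted p = 0.633).

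These snoRNAs averaged 0.185 to 4.66 CPM. Reads of a snoRNA and of the unspliced host intron around it cannot be told apart in the table. Whether the libraries were selected for polyadenylated RNA or depleted of ribosomal RNA is not given in the sources used here. The ribosomal RNA precursor Rn45s stood at 4539, 3828 and 6464 CPM in FF EtOH and 5987, 18286 and 41159.5 CPM in FF 4OHT beside these changes, and its part in them was not tested.

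**Figure D5:**
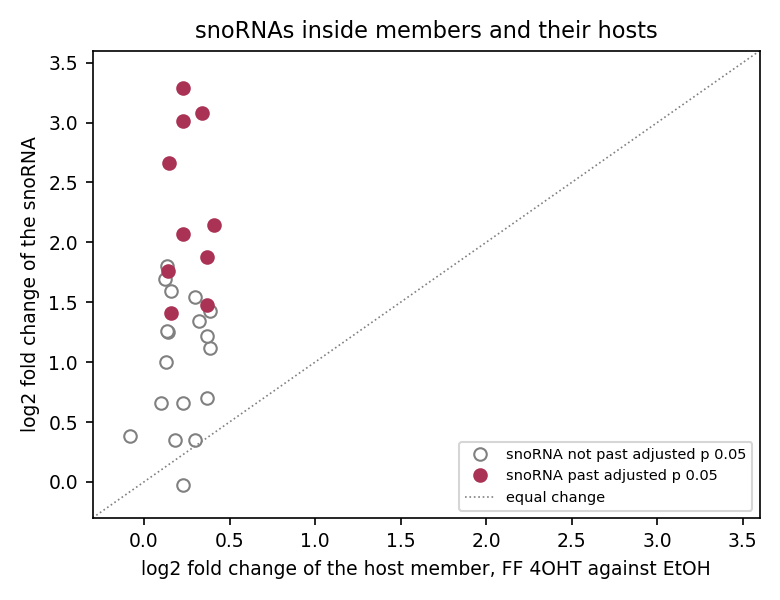
Log2 fold change of FF 4OHT against EtOH for 28 intronic snoRNAs (vertical axis) against that of their host member (horizontal axis), on equal scales. Filled points passed an adjusted p of 0.05 (10 snoRNAs, 7 of which reach the count filter outside the FF line), and the dotted line marks equal change. The snoRNAs range from -0.03 to 3.29 and the hosts from -0.08 to 0.41.

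The genes around the ribosomal proteins were taken from lists, whose counts are read against the 5.16% of all genes that rose and the 8.29% that fell in FF. Of 7 tested ribosomal protein genes with other symbols, such as Fau, 0 were called and their median in FF was 0.21. Fau, made as a fusion with a ubiquitin-like protein, went from 562 ± 58.2 to 756 ± 73.2 CPM (SD, n = 3), and Rpl22l1 from 72.6 ± 41.7 to 119 ± 12.8 CPM (SD, n = 3). Of 19 elongation factors and other TOP messenger genes, 1 rose and none fell, with a median of 0.08: Eif4b, a helper of the initiation helicase, went from 658 ± 53.8 to 878 ± 23.3 CPM (SD, n = 3, edgeR adjusted p = 0.00883). Without Het_4OHT A and FF_EtOH C, 5 of these 19 rose and 1 fell, against 7.1% and 10.5% of all genes.

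Of 19 genes of mTOR and LARP1 control, 1 fell in FF 4OHT, Tsc2, a brake on mTOR (log2 -0.48, edgeR adjusted p = 0.025), and none rose. Of 22 genes for chaperones, import and subunit export, 2 fell, Heatr3, which brings Rpl5 into the nucleus (-0.43, edgeR adjusted p = 0.0341), and the importin Kpnb1 (-0.38, 0.0473). With all 18 libraries the counts for these lists and the TOP list are near the background and are no result about the lists. The count of TOP genes that rose without Het_4OHT A and FF_EtOH C, given above, was larger than its background. What set that count apart was not tested. Of 14 genes of ribosome quality control, 2 fell, the collision sensor Zfp598 (-0.60, edgeR adjusted p = 0.00379) and the deubiquitinase Usp10 (-0.57, 0.0064), and without Het_4OHT A and FF_EtOH C 4 of the 14 fell, against 10.5% of all genes.

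The list of the 5S particle's surveillance route held 8 genes, p53 with its regulators and targets, and 5 rose and none fell in FF 4OHT. Mdm2, the ligase that Rpl5 and Rpl11 bind, went from 89.2 ± 3.87 to 147 ± 18.7 CPM (SD, n = 3, edgeR adjusted p = 0.00482), and Phlda3, an Akt inhibitor, from 4.84 ± 1.65 to 29.9 ± 3.68 CPM (SD, n = 3, edgeR adjusted p = 0.000271). Zmat3 rose by 1.52 log2 (edgeR adjusted p = 0.00136), the cyclin gene Ccng1 by 0.69 (0.0108) and the cell cycle inhibitor Cdkn1a by 1.05 (0.0338). These stood beside Rpl5 and Rpl11 at 0.28 and 0.07.

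Monocyte markers moved with the FF response. In FF 4OHT 4 of 5 such markers rose, Lyz2, Mpeg1, Ctss and Csf1r, and their summed level was 1425 to 1931 CPM against 353 to 436 CPM in FF EtOH. Of 7 progenitor markers 1 fell, Mpo (log2 -2.02, edgeR adjusted p = 0.0346), and their summed level was at 1410 to 1818 CPM against 1691 to 3369 CPM. In these bulk libraries a shift in the kinds of cells and a change of RNA within cells cannot be told apart. The part of the marker shift in the members' difference was not tested.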

How the data were processed

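Total RNA of 18 libraries was measured as deposited read counts per gene symbol. The authors used HISAT2 2.0.5 and featureCounts 1.5.2 with the mm10 build, per the submitters' processing notes; the handling of strand and of reads that match several places is not given in the sources used here. The members and lists were chosen with earlier results of these data known. Named members are the 5 highest and 5 lowest in FF, those past the test, the highest by level, the 6 lowest in Het against WT and those of fixed roles; Rpl4, Rpl6, Rpl7, Rpl38, the pseudogenes and other genes picked for a library or a copy were chosen after their values were seen.

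Counts were filtered with filterByExpr (minimum count 10), scaled by TMM and fitted once over all libraries, 1 mean per group, with edgeR 4.0.16 (robust quasi-likelihood F test, R 4.3.3), and p-values were adjusted over all tested genes by Benjamini-Hochberg (threshold 0.05). Some members that fall under these rules are not reported here. The code was tested on simulated data. Depth was 24730213 to 49277884 counts. CPM were computed here from the deposited counts and the library totals over tested genes, multiplied by the TMM factors. Shares were compared by an exact permutation test. Alternatives included DESeq2 1.42.0, limma 3.58.1, other scalings and filters, and leaving out libraries. Leaving out FF_EtOH A together with Het_4OHT A, the non-overlap counts without FF_EtOH C or A, and the split of snoRNAs by the count filter outside the FF line were chosen after seeing the data. Deviations of Het libraries of the same letter correlated at 0.476, 0.697 and 0.402. On this, Het libraries of equal letter were set side by side, and alternative fits used the letter as a block. The main fit, its interaction terms and the share test did not use the letters. The labels do not state that equal letters are pairs. Copies came from GENCODE M21 transcripts and start windows from RefSeq.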

Additional observations from a re-analysis of the deposited data

How the results depend on the processing

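The share of counts on the members kept its direction in FF (1.06 to 1.42 points leaving out 1 library). It reversed in WT without WT_EtOH B (-0.03, range -0.03 to 0.61) and in Het without Het_4OHT A (-0.53, range -0.53 to 1.6, and -0.53 without Het_4OHT A and FF_EtOH C). Members called higher in FF numbered 5 with only the FF groups fitted (7.74% of all genes), 11 without Het_4OHT A and FF_EtOH C (7.1%), 15 without these and WT_4OHT C (9.21%), and 3 without FF_EtOH A and Het_4OHT A (6.48%), a pair chosen after seeing the data. They numbered 0 without FF_EtOH C alone (3.52%) and 0 without FF_EtOH A alone (3.04%). The FF median was 0.20 to 0.30 leaving out 1 library, 0.30 without Het_4OHT A and FF_EtOH C, 0.30 without FF_EtOH C and WT_4OHT C, and 0.31 without all 3.

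In FF against WT responses 1 member was called without Het_4OHT A and FF_EtOH C (1.61% of all genes). There were 0 without these and WT_4OHT C (1.1%) and 0 without FF_EtOH A and Het_4OHT A (0.87%). In FF against Het responses 0 to 1 were called higher leaving out 1 library (median -0.16 to 0.42, 0.092 to 1.16% of all genes). There were 4 without Het_4OHT A and FF_EtOH C (median 0.47, 0.777% of all genes), 5 without these and WT_4OHT C (0.48, 1.4%) and 1 without FF_EtOH A and Het_4OHT A (0.45, 0.777%). The Het against WT response median was -0.20 to 0.45 leaving out 1 library, and -0.20, -0.23 and -0.21 in the same 3 fits. In FF against WT with EtOH 2 members were lower without the 3 libraries (2.54% of all genes). In Het against WT with EtOH 16 to 24 were lower leaving out 1 library (6.69 to 7.79% of all genes), and 42, 41 and 43 in those fits (15.1, 14.5 and 14.4% of all genes). The cause of these shifts was not tested.

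With a replicate block common to all lines the FF median was 0.24 with 0 calls (5.37% of all genes higher, 7.97% lower). The Het median was 0.20, and 30 members were lower in Het against WT with EtOH (10.4% of all genes). With a replicate block within each line 3 members were called in FF (9.75% of all genes), with medians of 0.25 in FF, 0.14 in Het and 0.02 in WT. Deviations of libraries of the same letter correlated at 0.167, 0.182 and 0.067 in FF and at 0.389, -0.023 and 0.25 in WT. The labels do not say whether equal letters are pairs in any line.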
